A study of Mus musculus with 11 samples.

Results

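The transcripts of 10 integrin chains carried by leukocytes were examined in whole tumours: Itgb2l, Itgb2, Itgal, Itgam, Itgax, Itgad, Itga4, Itgb7, Itgae and Itga2b. Itgb2l was chosen on its measured counts, which were higher in the KO tumours of this same comparison, and the other 9 were listed by name as the chains of the same leukocyte family. These are 10 of the 54232 genes in the count table, and 9 of them were among the 16536 genes with enough counts to be tested. Itgad was the exception. The tumours were 11 orthotopic pancreatic tumours in female C57BL/6 mice, each grown from 1000 cells of TB32048, a pancreatic carcinoma line from a female mouse in which Pkn2 was intact. In the KO group (n = 6, replicates A to F) the hosts were Pkn2 fl/fl and carried RosaCreERT2, and in the WT group (n = 5, replicates A to E) they were Pkn2 +/+ littermates with the same RosaCreERT2 allele. Both groups were adult and received tamoxifen. Because RosaCreERT2 is not specific to a lineage, the deletion in KO hosts was not limited to fibroblasts and could take in leukocytes, whereas the carcinoma cells kept Pkn2. Loss of Pkn2 in the leukocytes themselves was not measured here. All tumours came from the same carcinoma line.

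Integrins are surface receptors made of an alpha and a beta chain, and a chain usually reaches the surface only when it finds its partner. The Itgb2 chain (CD18) pairs with Itgal (CD11a), Itgam (CD11b), Itgax (CD11c) or Itgad (CD11d) and lets leukocytes adhere to endothelium, to complement fragments and to each other. Itga4 pairs with Itgb7 or Itgb1 in homing and in binding of VCAM, Itgae (CD103) pairs with Itgb7 in tissue-resident T cells and some dendritic cells, and Itga2b (CD41) pairs with Itgb3 on platelets and early blood progenitors. Itgb2l encodes pactolus, a surface protein of mouse neutrophil precursors and neutrophils that resembles the Itgb2 chain and is not known to take an alpha partner.

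The genes lie on 6 chromosomes of GRCm38, and all are annotated as protein coding. Itgb2l (ENSMUSG00000000157) is at chr16:96422288-96443619 on the minus strand and Itgb2 (ENSMUSG00000000290) at chr10:77530252-77565708 on the plus strand. Itgal (ENSMUSG00000030830, chr7:127296260-127335138), Itgam (ENSMUSG00000030786, chr7:128062640-128118491), Itgax (ENSMUSG00000030789, chr7:128129547-128150657) and Itgad (ENSMUSG00000070369, chr7:128154376-128223816) follow each other on the plus strand of chromosome 7. Itga4 (ENSMUSG00000027009) is at chr2:79255426-79333123 and Itgae (ENSMUSG00000005947) at chr11:73090583-73147446, both on the plus strand. Itgb7 (ENSMUSG00000001281, chr15:102215995-102231944) and Itga2b (ENSMUSG00000034664, chr11:102453297-102470122) are on the minus strand.

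Whether Itgb2l counts could have been drawn from Itgb2 was examined first, because the transcripts are related and only uniquely aligned reads were counted. The longest protein-coding transcript of Itgb2l (2806 bases) and that of Itgb2 (2970 bases) were 78.6% identical over 1947 aligned bases. Of the 2776 different stretches of 31 bases in the Itgb2l transcript, 0 occurred in the Itgb2 transcript. A gene annotated on the opposite strand (ENSMUSG00000117081) spans Itgb2l, but its exons share 0 bases with those of Itgb2l.

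The promoters of 6 of the 10 members were found in RefSeq sequence of GRCm38.p6, and those of Itgb2, Itgal, Itgad and Itgae are named only. The 250 bases before the start are given for the beta-like chain Itgb2l and for the myeloid alpha chains Itgam and Itgax, which between them cover the member with the greatest difference and the chains best known from neutrophils and dendritic cells. Capitals mark matches, on either strand, to GAGGAA (the core bound by PU.1 and other ETS factors), TTNNGNAA (a C/EBP half-site pattern) or TGTGGT (the core bound by RUNX factors), which are regulators known from myeloid and lymphoid genes. The windows are chr16:96443615-96443864 on the minus strand for Itgb2l, chr7:128062390-128062639 on the plus strand for Itgam and chr7:128129300-128129549 on the plus strand for Itgax:
Itgb2l: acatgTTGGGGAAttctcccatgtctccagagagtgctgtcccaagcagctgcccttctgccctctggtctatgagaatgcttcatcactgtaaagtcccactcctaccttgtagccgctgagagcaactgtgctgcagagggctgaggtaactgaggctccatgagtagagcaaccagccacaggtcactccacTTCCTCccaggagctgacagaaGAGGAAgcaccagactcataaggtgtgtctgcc
Itgam: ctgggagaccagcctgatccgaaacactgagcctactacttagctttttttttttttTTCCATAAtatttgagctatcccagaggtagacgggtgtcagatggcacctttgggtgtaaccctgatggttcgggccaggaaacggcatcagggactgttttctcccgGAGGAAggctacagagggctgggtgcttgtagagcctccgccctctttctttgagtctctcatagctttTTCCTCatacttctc
Itgax: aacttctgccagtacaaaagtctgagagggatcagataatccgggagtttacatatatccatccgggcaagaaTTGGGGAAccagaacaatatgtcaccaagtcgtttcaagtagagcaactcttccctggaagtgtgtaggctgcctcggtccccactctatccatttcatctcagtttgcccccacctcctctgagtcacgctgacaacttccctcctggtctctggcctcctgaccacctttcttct
GAGGAA matched at 2 places in the windows of Itgb2l, Itgam and Itga2b and at 0 in those of Itgax, Itga4 and Itgb7. It was present in 23.3% of all 32851 promoter windows of this length. TTNNGNAA matched once each in Itgb2l, Itgam and Itgax, against 36.8% of all windows, and TGTGGT only in Itga4, against 14% of all windows. No match overlapped another, and these matches describe the letters only.

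Itgb2l was near the smallest level that could be seen in WT tumours and was well above it in 5 of 6 KO tumours. Its raw counts were 427, 216, 303, 407, 142 and 21 in KO replicates A to F and 4, 9, 5, 7 and 22 in WT replicates A to E. Divided by the scaled library total and put on a common scale (CPM), these were 14.95, 7.59, 10.54, 16.54, 5.77 and 0.846 CPM in KO and 0.174, 0.751, 0.246, 0.274 and 0.650 CPM in WT tumours, where 3 counts correspond to between 0.0887 and 0.250 CPM. KO replicate F lay just above the highest WT tumour and far below the other 5 KO tumours. Its exact 95% Poisson interval, 0.524 to 1.29 CPM, covered the value of WT replicate B, whose interval was 0.343 to 1.43 CPM, and such intervals cover counting error only.

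KO tumours averaged 9.37 ± 5.88 CPM (SD, n = 6) and WT tumours 0.419 ± 0.262 CPM (n = 5), a 22.4-fold ratio of means. The fitted log2 fold change was 4.50 ± 0.70 (SE) and ranged from 4.26 to 4.79 over 18 other ways of processing the counts. No p is given, since the gene was picked for this difference. It was 4.31 with WT replicates A, B and C left out.

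**Figure D1:**
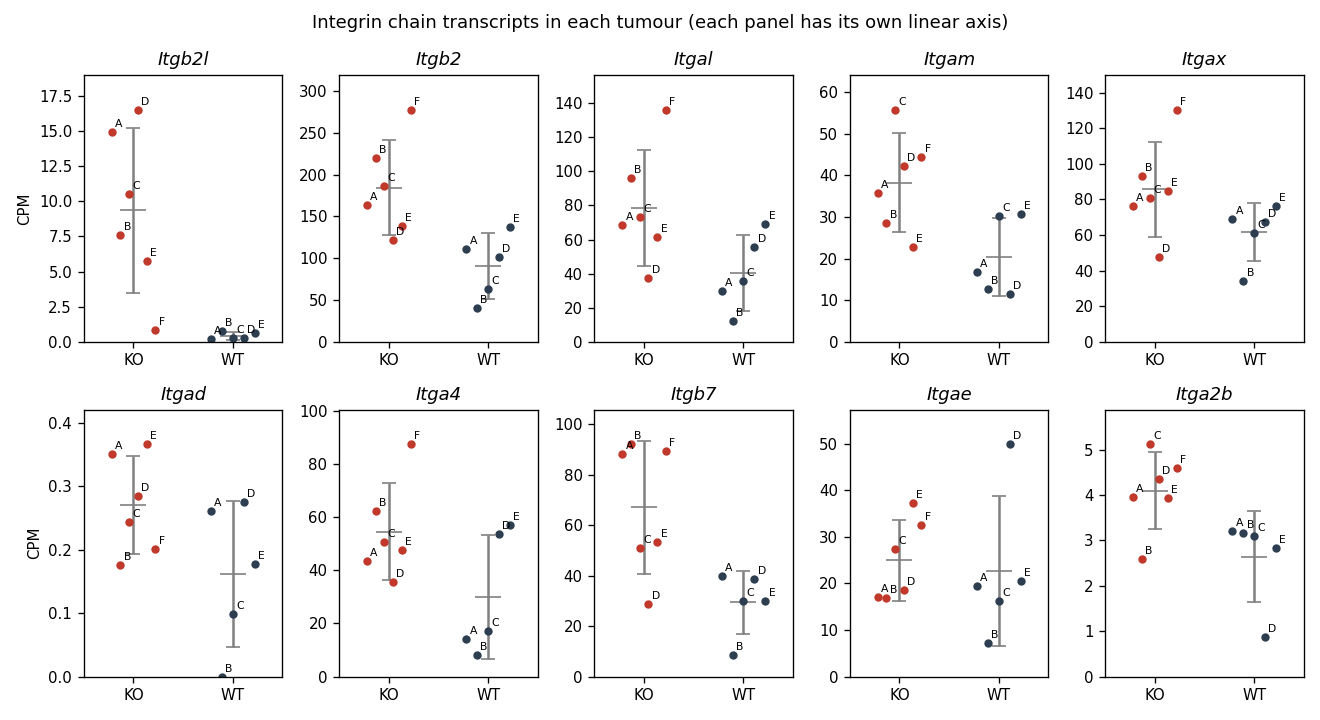
CPM of each integrin chain in every tumour, with KO tumours in red, WT tumours in dark blue and letters giving the replicate; grey bars are the mean and SD (n = 6 and 5), and each panel has its own linear axis from 0. Itgb2l is high in KO replicates A to E only, while KO replicate F has the highest Itgb2, Itgal, Itgax and Itga4 of all 11 tumours.

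The libraries themselves differed in ways that bear on these levels. WT replicate B had the fewest counts in total, 16294128, and WT replicate E the most, 31121422. The log2 CPM of each gene was also compared with the mean of that gene over all tumours. In WT replicates A, B and C this deviation fell with gene length (Spearman rho across genes from -0.496 to -0.171). In the other 8 tumours rho was between 0.1 and 0.372, and these trends are relative to the other tumours. Ribosomal RNA, taken as the share of counts on Gm42418, mt-Rnr1 and mt-Rnr2, was 6.39% in WT replicate B against 0.241% to 1.40% elsewhere. For the tested chains below, the log2 fold change is therefore also given without these 3 WT tumours. It is given with ribosomal RNA share added as covariate where that moved it by over 1.5 times. The ratios between chains are also given without these 3 WT tumours. Differences of other single genes and of gene lists are given over all tumours only, without this check. The targeted gene, Pkn2, averaged 96.6 ± 9.34 CPM over KO tumours and 96.7 ± 34.6 CPM over WT tumours (edgeR adjusted p = 0.996). A gene-level count over a tumour whose carcinoma cells keep Pkn2 does not check the genotype labels.

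Among the Itgb2 family, Itgb2, Itgal, Itgam and Itgax all had higher means in KO tumours, and none passed the adjusted threshold. Itgb2, the shared beta chain, was at 111, 39.97, 62.9, 101.9 and 137 CPM in WT replicates A to E and between 122 and 278 CPM (median 175) in KO tumours. Of the KO tumours, 5 lay above all WT tumours and KO replicate D was below WT replicate E. The log2 fold change was 1.02 ± 0.31 (SE), which edgeR gave an adjusted p of 0.102. It was 0.63 without WT replicates A, B and C (adjusted p = 0.324) and 0.56 with the ribosomal RNA covariate (adjusted p = 0.543).

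Itgal, the chain that binds ICAM on lymphocytes and most other leukocytes, was at 29.7, 12.1, 35.9, 55.5 and 69.4 CPM in WT replicates A to E and between 37.1 and 136 CPM (median 70.9) in KO tumours. Only KO replicates B, C and F lay above all WT tumours. The log2 fold change was 0.96 ± 0.40 (SE; edgeR, adjusted p = 0.176) and 0.34 without WT replicates A, B and C or 0.29 with the ribosomal RNA covariate.

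Itgam, the alpha chain of neutrophils and monocytes, was at 16.7, 12.8, 30.2, 11.4 and 30.8 CPM in WT replicates A to E and between 22.7 and 55.8 CPM (median 39.0) in KO tumours. KO replicates A, C, D and F were above all WT tumours. The log2 fold change was 0.91 ± 0.31 (SE; edgeR, adjusted p = 0.121), and it changed little, to 0.86, without WT replicates A, B and C. More than any other member, Itgam shares exons with another gene on its strand (Itgad shares 7.32% of its exonic bases). The annotated readthrough gene Gm49368 covers 3450 of the 5024 exonic bases of Itgam (68.7%) and held only 0 to 5 counts per tumour. A read that lies in exons of both genes has no unique gene, and how such reads were counted is not given in the sources used here, so the Itgam level may be too low in every tumour.

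Itgax, the alpha chain of dendritic cells and many macrophages, was at 69.0, 33.9, 61.3, 67.3 and 75.99 CPM in WT replicates A to E and between 47.9 and 130 CPM (median 82.8) in KO tumours. KO replicate D lay below 4 of the WT tumours. The log2 fold change, 0.48 ± 0.25 (SE; edgeR, adjusted p = 0.260), was 0.26 without WT replicates A, B and C and 0.08 with the ribosomal RNA covariate. Itgad had 5 to 10 counts in KO and 0 to 7 counts in WT tumours, at or near the floor of 3 counts, so that no difference was detectable at this depth.

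The Itgb7 family and Itga2b behaved unequally. Itgb7, which pairs with Itga4 and Itgae, was at 39.8, 8.60, 30.0, 38.7 and 29.9 CPM in WT replicates A to E and between 28.7 and 91.95 CPM (median 70.8) in KO tumours. All KO tumours but replicate D lay above every WT tumour, and the log2 fold change was 1.19 ± 0.38 (SE; edgeR, adjusted p = 0.111). It was 0.97 without WT replicates A, B and C and 0.61 with the ribosomal RNA covariate.

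Itga4 was at 14.2, 8.09, 17.1, 53.8 and 57.2 CPM in WT replicates A to E and between 35.8 and 87.5 CPM (median 49.3) in KO tumours. WT replicates D and E lay inside the range of the KO tumours, while WT replicates A, B and C, whose libraries ran against gene length, lay below it. The exons of Itga4 span 13978 bases, the most of the 10 members. The log2 fold change was 0.86 ± 0.46 (SE; edgeR, adjusted p = 0.267) and turned to -0.02 without those 3 tumours, and it was 0.22 with the ribosomal RNA covariate. The part of the length trend in this difference was not tested for Itga4 beyond a gene length offset, under which it was 0.73.

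Itgae was at 19.3, 7.26, 16.2, 49.8 and 20.4 CPM in WT replicates A to E and between 16.9 and 37.2 CPM (median 22.9) in KO tumours, with the highest value in WT replicate D. Its log2 fold change, 0.14 ± 0.40 (SE; edgeR, adjusted p = 0.857), turned to -0.49 without WT replicates A, B and C and to -0.39 with the ribosomal RNA covariate. Itga2b was at 3.21, 3.17, 3.10, 0.862 and 2.84 CPM in WT replicates A to E and between 2.60 and 5.11 CPM (median 4.15) in KO tumours. In log2 fold change this was 0.64 ± 0.34 (SE; edgeR, adjusted p = 0.259), and it grew to 1.14 without WT replicates A, B and C. Of its usual beta partner and the other integrin beta chain of these cells, Itgb3 had a log2 fold change of 0.41 ± 0.31 (edgeR, adjusted p = 0.431) and Itgb1 one of 0.52 ± 0.23 (edgeR, adjusted p = 0.196).

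**Figure D2:**
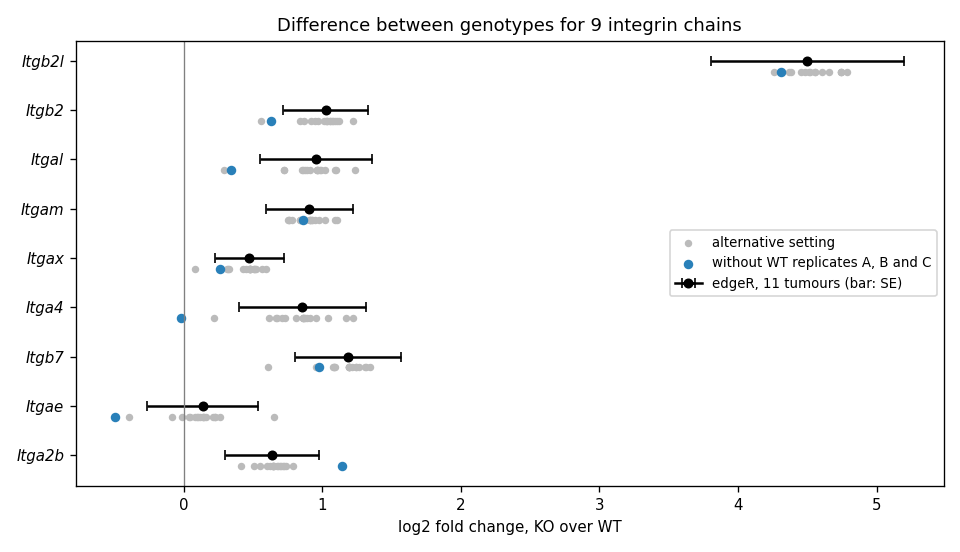
Log2 fold change, KO over WT, of the 9 tested chains: black points and bars are the edgeR estimate and its SE over 11 tumours, grey points are the other ways of processing the counts and blue points the fit without WT replicates A, B and C. Itgb2l stands near 4.5 under all of them, while Itga4 and Itgae reach 0 or below when those 3 WT tumours are left out.

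Counted together, of the 8 members other than Itgb2l that were tested, 0 were called in either direction by edgeR at an adjusted p under 0.05. Over all genes 0.0181% were called higher and 0.0% lower. At an unadjusted p under 0.05, 4 of these 8 were higher (Itgb2, Itgal, Itgam and Itgb7) and 0 lower, against 8.57% and 15.5% of all tested genes. DESeq2 called Itgb2 (adjusted p = 0.0234) and Itgb7 (adjusted p = 0.031) higher, where it called 3.5% of genes higher and 6.17% lower, so these calls depend on the tool. Without WT replicate E, edgeR called Itgb2 (adjusted p = 0.0364) and Itgam (adjusted p = 0.0467) higher, where it called 3.63% of all genes higher and 7.46% lower, and no other tumour left out gave a call. The median log2 fold change of the 8 was 0.88, and that of all tested genes -0.03. None of the 8 had CPM ranges that were fully apart between genotypes. Among all genes 1.59% were apart and higher in KO and 2.01% were apart and lower. In tumour pieces, fewer cells of a type and less RNA per cell cannot be told apart. As nothing in the labels says how tumours were grouped for extraction or sequencing, no comparison within batches could be made.

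The order of the chains was compared per length, as CPM per kilobase of annotated exon (RPKM). In WT tumours the mean level ran Itgb2 (29.7 ± 12.8 RPKM), Itgax (12.8 ± 3.39 RPKM), Itgb7 (10.6 ± 4.52 RPKM), Itgal (6.17 ± 3.41 RPKM), Itgae (4.93 ± 3.51 RPKM), Itgam (4.05 ± 1.88 RPKM), Itga4 (2.15 ± 1.68 RPKM), Itga2b (0.483 ± 0.184 RPKM), Itgb2l (0.0969 ± 0.0606 RPKM) and Itgad (0.0359 ± 0.0255 RPKM; SD, n = 5). The ranges of all neighbours in this order overlapped, yet Itgb2 was above Itgax in 5 of 5 tumours, Itgb7 above Itgal in 5 of 5 and Itga2b above Itgb2l in 5 of 5. Itgae and Itgam were not ordered, with Itgae higher in 2 of 5.

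In KO tumours Itgb2 again led (60.5 ± 18.7 RPKM, n = 6), with a range apart from that of the next chain, Itgb7 (24.2 ± 9.54 RPKM). Itgax followed at 17.8 ± 5.58 RPKM and Itgal at 11.99 ± 5.18 RPKM, and each was below the chain before it in 6 of 6 tumours. The RPKM of Itgb2l (2.17 ± 1.36) lay above that of Itga2b (0.750 ± 0.156) in 5 of 6 KO tumours, with KO replicate F the exception, and below that of Itga4 (3.91 ± 1.31) in 4 of 6. With the Itgam level taken per unshared exonic base, Itgam would move to 24.3 ± 7.54 RPKM in KO and 12.9 ± 6.01 RPKM in WT tumours, to the place after Itgb2 in both genotypes, so its rank cannot be fixed from these counts.

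The ratio of each alpha chain to its beta chain was then compared between genotypes, which asks whether the balance of the transcripts differed rather than their amount. The ratios describe transcripts of whole tumours, and the receptors themselves were not measured. Ratios were taken within each tumour from raw counts, as the log2 of the quotient with 0.5 count added to each, and tested with a two-sided exact permutation test over the 11 tumours, whose smallest possible p is 0.00216. Of 6 ratios, only that of Itgax to Itgb2 passed after adjustment. It was -0.69, -0.24, -0.04, -0.60 and -0.85 in WT replicates A to E and between -1.35 and -0.71 in KO tumours, where only KO replicate E lay above the lowest WT tumour. The mean was -1.11 ± 0.22 (SD, n = 6) in KO and -0.48 ± 0.34 (n = 5) in WT tumours, a difference of -0.63 (exact permutation p = 0.00649, adjusted over 6 ratios p = 0.0389).

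This means fewer Itgax counts per Itgb2 count in KO tumours, while the CPM of both chains had higher means there. Without WT replicates A, B and C the difference was -0.39 (exact permutation, adjusted p = 0.161), in a design whose smallest unadjusted p is 0.0357. Leaving out any 1 of KO replicates A, B, C, D and F or WT replicates A, B, C and D also took the adjusted p above 0.05 (0.0571 to 0.114), with differences between -0.68 and -0.52.

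The other 5 ratios did not pass. The Itgae to Itgb7 ratio was -1.39 ± 0.85 in KO (n = 6) and -0.47 ± 0.56 in WT tumours (n = 5; exact permutation p = 0.0866, adjusted p = 0.26), and KO replicates A and B had the lowest values, -2.37 and -2.44. The Itgal to Itgb2 ratio differed by -0.03, the Itgam to Itgb2 ratio by -0.12 and the Itga4 to Itgb7 ratio by -0.05 between genotypes, each with exact permutation p of 0.766 or more and an SD between 0.24 and 0.97 within groups. Without WT replicates A, B and C these differences were -0.35, 0.38 and -0.95 (exact permutation, adjusted p = 0.161, 0.5 and 0.161), and with the gene length trend removed -0.27, -0.28 and -0.48 (exact permutation, adjusted p = 0.203, 0.539 and 0.203). The Itgad to Itgb2 ratio, which rests on 10 counts or fewer, differed by -0.22 (exact permutation p = 0.608), or by -0.44 with 1 count added in place of 0.5 (exact permutation p = 0.271), and WT replicate B had 0 counts. Without WT replicates A, B and C the Itgae to Itgb7 difference was -1.29 (exact permutation, adjusted p = 0.161). The Itgad to Itgb2 difference was then -0.35 (exact permutation, adjusted p = 0.5).

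**Figure D3:**
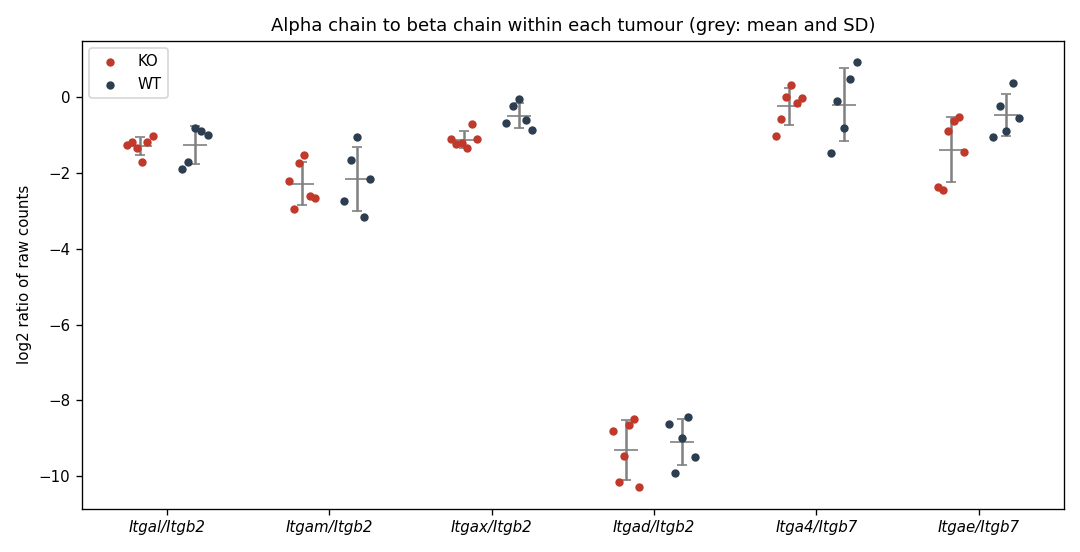
Log2 ratio of the raw counts of an alpha chain to those of its beta chain in each tumour, for 6 pairs; red points are KO and dark blue points WT tumours, and grey bars the mean and SD (n = 6 and 5). Itgax to Itgb2 is lower in KO (mean -1.11) than in WT tumours (mean -0.48), and the other pairs overlap widely.

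How the chains varied from tumour to tumour was examined after the mean of each genotype was subtracted, which removes the difference between the genotype means. Itgb2l was chosen for its rise in KO tumours, and most of its remaining spread lies among them (SD 5.88 CPM against 0.262 CPM in WT). Its relations are therefore not independent of that choice. Levels were log2(CPM + 0.5), and 144 relations were computed over the 11 tumours, 36 between members and 108 between members and the mean level of marker gene lists. Exact permutation of tumours within genotype (86400 orders) gave the p-values, which were adjusted over all 144. The points share library preparation and the length trend of WT replicates A, B and C, so r within the 6 KO tumours is given as well.

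Of the 144 relations, 7 passed at an adjusted p under 0.05 by Pearson r and 1 by Spearman rho. The 7 include that of Itgb2l with the early granule genes, which is given below as a description only. Of the 36 between members, 5 passed by Pearson r, all among Itgb2, Itgal, Itgax and Itga4. These chains are grouped for that reason, and how often pairs of other genes would pass was not tested. Of the 6 pairs in the group, Itgb2 with Itga4 did not pass (r = 0.799, exact permutation, adjusted p = 0.0881; 0.566 without WT replicates B and E). Pearson r was 0.918 for Itgal with Itga4 (exact permutation, adjusted p = 0.005; Spearman rho 0.964, adjusted p = 0.0333), and it was 0.961 in KO tumours and 0.83 without WT replicates B and E, the tumours farthest from the median. For Itgb2 with Itgax r was 0.879 (exact permutation, adjusted p = 0.00914; rho 0.891, adjusted p = 0.0833), 0.883 in KO tumours and 0.805 without WT replicates B and E. Itgb2 with Itgal (r = 0.895, rho = 0.891), Itgal with Itgax (r = 0.916, rho = 0.782) and Itgax with Itga4 (r = 0.728, rho = 0.855) also passed by Pearson r (exact permutation, adjusted p between 0.025 and 0.0297) and did not by rho (adjusted p from 0.0833 to 0.13). The r of Itgax with Itga4 was 0.558 without KO replicate D and WT replicate B. Itgb7 had r of 0.802 with Itgb2 (exact permutation, adjusted p = 0.0833) and 0.871 with Itgax (adjusted p = 0.0871).

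Itgb2l did not follow its relative. Its r with Itgb2 was -0.478 (exact permutation, adjusted p = 0.195; rho -0.527, adjusted p = 0.361), -0.752 in KO tumours and -0.152 without KO replicates D and F, on which the negative value therefore rests. With Itgax r was -0.711 (exact permutation, adjusted p = 0.0907), and -0.411 without the same pair. KO replicate F had 278 CPM of Itgb2 and 0.846 CPM of Itgb2l, and KO replicate D had the least Itgb2 of the KO tumours, 122 CPM, with the most Itgb2l, 16.54 CPM. Itgam stood between: r was 0.266 with Itgb2, 0.005 with Itgb2l and 0.564 with Itga2b (exact permutation, adjusted p = 0.66, 0.996 and 0.203).

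Itgb2l moved instead with the early granule list, most of whose genes encode proteins of granules that neutrophil precursors make in the bone marrow. The list holds 11 genes (Fcnb, Ngp, Camp, Ltf, Lcn2, Elane, Mpo, Prtn3, Ctsg, Cebpe and Ms4a3). With their mean level r was 0.909 (exact permutation, adjusted p = 0.0471), 0.99 in KO tumours and 0.773 without KO replicates D and F. Spearman rho was 0.709 (adjusted p = 0.178), and in WT tumours the points rest on 4 to 22 Itgb2l counts. As Itgb2l was chosen for its rise in these KO tumours, neither p is independent of that choice. The gene lists were also chosen with earlier results known, so this relation is a description and neither p tests it. The summed CPM of these genes was 1861, 845, 1369, 1485, 556 and 141 in KO replicates A to F and 88.8, 193, 120, 41.8 and 104 in WT replicates A to E. The KO tumours thus had almost the same order for Itgb2l as for the granule genes, in which only replicates A and D changed places, and KO replicate F was the lowest in both.

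With genes of mature neutrophils (S100a8, S100a9, Ly6g, Csf3r and 7 others) r was 0.755 (exact permutation, adjusted p = 0.0833). WT replicate B had 1147 summed CPM of these genes and 0.751 CPM of Itgb2l, whereas KO replicate E had 791 and 5.77 CPM. The eosinophil, basophil and mast cell list had r of 0.793 with Itgb2l (exact permutation, adjusted p = 0.0881), 0.952 in KO tumours and 0.43 without KO replicates D and F. The B and plasma cell list had r of 0.569 (adjusted p = 0.219), 0.683 in KO tumours and 0.494 without the same pair. Positive relations of Itgb2l within KO tumours were thus not confined to the early granule genes. The dendritic cell list had r of -0.756 with Itgb2l (adjusted p = 0.0881). Itgax in contrast followed the dendritic cell list (r = 0.806, exact permutation, adjusted p = 0.0471; rho 0.855, adjusted p = 0.0833; 0.942 in KO tumours and 0.65 without KO replicate D and WT replicate B). This was not particular to that list or that chain. Itgax had r of 0.75 with the T and NK cell list (exact permutation, adjusted p = 0.0881), and 0.974 in KO tumours. Itgb2 had the same rho with the dendritic cell list, 0.855, and r of 0.701 (adjusted p = 0.0881).

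**Figure D4:**
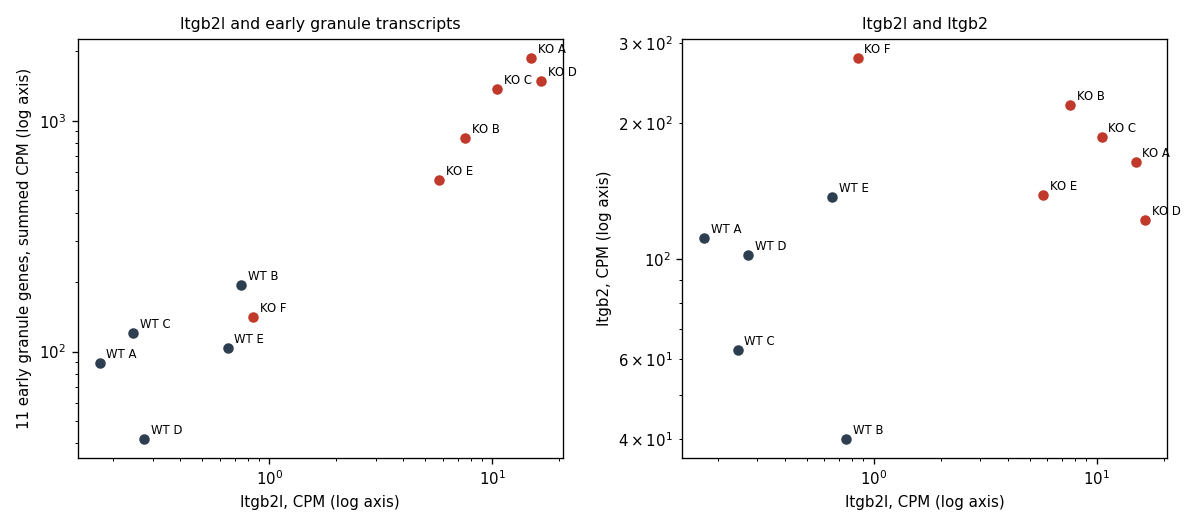
Itgb2l CPM (x axis, log) against the summed CPM of 11 early granule genes (left, log axis) and against Itgb2 CPM (right, log axis) in each tumour, with KO in red and WT in dark blue. On the left KO replicate F (0.846 CPM of Itgb2l, 141 summed CPM) lies among the WT tumours, and on the right it has the highest Itgb2 (278 CPM).

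Of 14897 other tested genes with a mean of at least 1 CPM, those most like Itgb2l by Pearson r over the 11 centred tumours were Fcnb (0.97), 4930438A08Rik (0.955), Gm34680 (0.947), Ceacam10 (0.923), the immunoglobulin segments Ighv11-2 (0.92) and Igkv14-126 (0.907), Ugdh (0.911) and Slco4c1 (0.908). Fcnb encodes ficolin-B, a lectin of immature myeloid cells. Most like Itgb2 were Lcp1 (0.972), which encodes the leukocyte actin-bundling protein plastin, and Jakmip1 (0.972), Psd4 (0.971), Arhgap30 (0.969), Nfkb2 (0.969), Smarcd2 (0.959), Map4k1 (0.953) and Ubash3a (0.95). The lists had no gene in common. These are descriptions over 11 tumours, with no test.

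**Figure D5:**
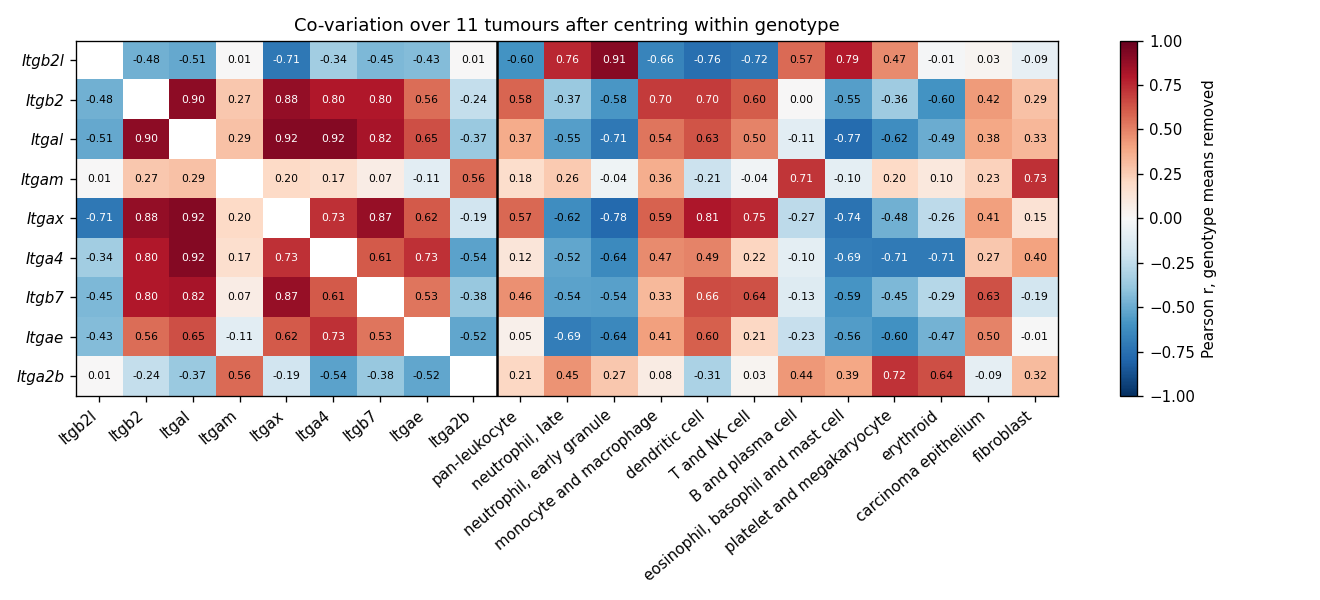
Pearson r over 11 tumours, after the genotype means were subtracted, of each tested integrin chain (rows) with the other chains (left of the line) and with the mean level of 12 marker gene lists (right); red is positive and blue negative. Itgb2, Itgal, Itgax, Itga4 and Itgb7 form a positive block (0.61 to 0.92), whereas Itgb2l is negative with each of them and reaches 0.91 with early neutrophil granule genes.

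The genes around these receptors were counted in lists, to be read against the 8.57% of all tested genes that were higher and the 15.5% that were lower at an unadjusted p under 0.05. Of 13 genes that switch leukocyte integrins on from inside the cell, 6 were higher and 0 lower at an unadjusted p under 0.05, with 0 past the adjusted threshold, and the median log2 fold change was 0.43. Fermt3, the kindlin that binds beta chain tails, had 0.70 ± 0.19 (SE; edgeR, adjusted p = 0.0928), Rassf5, a Rap effector, 0.71 ± 0.21 (adjusted p = 0.102) and Tln1, talin, 0.74 ± 0.26 (adjusted p = 0.126). Of 14 genes that carry the signal below the integrins, 11 were higher and 0 lower at an unadjusted p under 0.05, with a median of 0.56. Plcg2, a phospholipase of myeloid and B cells, was between 28.9 and 56.1 CPM in KO and between 11.9 and 24.5 CPM in WT tumours, with no overlap (log2 fold change 1.13 ± 0.23; edgeR, adjusted p = 0.0764), and the tyrosine kinase gene Btk had 0.74 ± 0.20 (adjusted p = 0.0928).

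Of 16 ligand genes, 13 were tested, 4 were higher and 0 lower at an unadjusted p under 0.05, and the median was 0.02. Icam1, the ligand of the Itgal and Itgam receptors, had 0.86 ± 0.38 (edgeR, adjusted p = 0.193), Vcam1, the ligand of the Itga4 receptors, 0.90 ± 0.39 (adjusted p = 0.184) and C3, the source of the complement fragment bound by the Itgam and Itgax receptors, 1.20 ± 0.52 (adjusted p = 0.181). Of 8 genes of selectins and rolling, 3 were higher and 0 lower at an unadjusted p under 0.05, and the median was 0.61. Among them Selp, P-selectin of endothelium and platelets, had 1.55 ± 0.59 (edgeR, adjusted p = 0.142; DESeq2, adjusted p = 0.0462). None of these genes was called by edgeR after adjustment. DESeq2 called 2 of the activation, 6 of the signalling, 0 of the ligand and 2 of the selectin and rolling genes higher, against 3.5% of all genes.

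Marker genes of the cells that carry these chains were counted in the same way, and 0 in any list passed the adjusted threshold of edgeR. All 11 early granule genes were higher at an unadjusted p under 0.05, with a median log2 fold change of 3.98, and 10 of them were called by DESeq2. Summed, they ranged from 141 to 1861 CPM in KO and from 41.8 to 193 CPM in WT tumours. At the same threshold mature neutrophil genes were higher in 6 of 11 (361 to 2413 against 209 to 1147 summed CPM), B and plasma cell genes in 6 of 6 (61.4 to 293 against 21.1 to 111) and monocyte and macrophage genes in 5 of 12 (2374 to 4258 against 1850 to 2962). Pan-leukocyte genes were higher in 3 of 9 (1316 to 2746 against 1258 to 1872), T and NK cell genes in 0 of 11 (86.4 to 692 against 250 to 709) and dendritic cell genes in 0 of 8 (42.3 to 126 against 48.6 to 82.5). Eosinophil, basophil and mast cell genes were higher in 4 of 9, erythroid genes in 1 of the 5 tested, and fibroblast and endothelial genes in 0 of 6 and 0 of 4, while carcinoma epithelium genes were lower in 3 of 6 (2657 to 5442 against 3086 to 9254 summed CPM). Their part in the differences of the members was not tested. Platelet markers were at or under 3 counts in most tumours for 5 of 8 genes, and Gp1bb was at 0 in all of them, whereas Pf4 had 355 to 2032 counts in KO and 521 to 2386 counts in WT tumours (30.1 ± 21.6 against 80.0 ± 71.0 CPM; log2 fold change -1.41, edgeR, adjusted p = 0.154). Pf4 was thus well seen and had the lower mean in KO, where Itga2b had the higher.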

How the data were processed

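Bulk RNA was measured in 11 tumours with strand-specific NEB Next Ultra II Directional libraries on an Illumina NovaSeq. Per the labels and the study's methods, reads were trimmed with Trimmomatic and aligned to GRCm38 with HISAT2 (version 2.1.0), and uniquely aligned reads over exons were counted with HTSeq (version 0.11.2). The authors deposited raw counts per gene, which were used here, and a table of normalised values, which was not. Members and gene lists were chosen with earlier results of these data known. Ensembl identifiers were matched to GENCODE M21 (54165 of 54232).

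CPM and tests came from edgeR (version 4.0.16, R version 4.3.3): TMM scaling, filterByExpr, the quasi-likelihood test of KO against WT over 16536 genes without covariates, and Benjamini-Hochberg adjustment at 0.05. DESeq2 (version 1.42.0) was an alternative. Standard errors are the log2 fold change over the square root of F. Ratios, relations and sequence counts were computed in Python (version 3.11.15). The fits and permutations were tested on simulated data. No libraries agreed within sampling noise (lowest chi-square per degree of freedom 35.6). The samples are labelled as separate tumours, and p-values measure the spread between them. Precision was set by 16294128 to 31121422 counts per tumour. Alternatives were another tool, scaling, filters, a ribosomal RNA covariate, a gene length offset, a replicate block and tumours left out.

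Named besides the members were Itgb1 and Itgb3, the genes with the 2 smallest p in each receptor list plus Fermt3, Tln1, Icam1 and Vcam1, marker genes, and the 8 genes most like Itgb2l and Itgb2. Gm49368 was added for its overlap with Itgam. Sequences are from RefSeq (GRCm38.p6) and GENCODE M21 transcripts. Some items that the rule for named genes would name are not reported here.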

Additional observations from a re-analysis of the deposited data

Results flagged for a closer look

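Each member's log2(CPM + 0.5) and each log2 chain ratio was examined within each genotype for a tumour far from the rest (Dixon's gap over range). Of 32 groups of values examined 3 held such a tumour, where chance alone gives about 1.6. Itgax was at 5.10 in WT replicate B, against 5.95 to 6.26 in the other 4 WT tumours. Itgb7 was at 3.19 in the same tumour, against 4.93 to 5.33. WT replicate B had the smallest library and 6.39% ribosomal RNA, and the part of either in these values was not tested. Itga2b was at 0.445 in WT replicate D, which held 22 counts of it, against 1.74 to 1.89 in the other WT tumours.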

How the results depend on the processing

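Without 1 tumour each, edgeR called between 0 and 608 genes higher and between 0 and 1248 lower, against 3 and 0 over all 11, with the highest counts when WT replicate E was left out (203 and 651 without WT replicate D, 30 and 2 without KO replicate F). DESeq2 called 566 genes higher and 997 lower, edgeR without a filter on low counts 39 and 6, with a gene length offset 68 and 29, and without WT replicates A, B and C 3 lower. With at least 10 counts required in every tumour, or the ribosomal RNA share as covariate, 0 were higher, at 3514 and 1470 genes with an unadjusted p under 0.05. Of the members other than Itgb2l, 2 were called higher by DESeq2, and between 0 and 2 with 1 tumour left out; 0 were called lower under every setting run. Replicate letters did not pair the tumours (correlations of deviations -0.135 to 0.118). With letters as a replicate block 8 genes were higher and 1 lower, and the Itgax to Itgb2 difference was -0.64 (exact sign flips, smallest p 0.0625, adjusted p = 0.75).

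That difference was -0.39 without WT replicates A, B and C and -0.72 to -0.52 with 1 tumour left out. The Itgam to Itgb2 difference turned to 0.38 without WT replicates A, B and C. With 1 tumour left out it ran from -0.38 to 0.15, Itgal to Itgb2 from -0.19 to 0.0859 and Itga4 to Itgb7 from -0.37 to 0.23. Itga4 turned to -0.0202 without WT replicates A, B and C. Itgae turned to -0.49 there, to -0.39 with the ribosomal RNA covariate, to -0.01 without KO replicate E and to -0.0866 without WT replicate B, and was at most 0.655 with 1 tumour left out. The causes were not tested. The Itgb2l difference stayed positive under all 18 settings. With 5 WT tumours and counts of 4 to 22, depth limits what can be said of Itgb2l in WT tumours, and of Itgad in all. KO-only relations and those without 2 tumours were chosen after seeing the data.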
